A study of Bactrocera dorsalis with 3 samples.

Results

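SODC and Zn-CuSOD are the 2 genes of the oriental fruit fly, Bactrocera dorsalis, that carry the name of a copper-zinc superoxide dismutase in the gene annotation used here, among 13489 gene models in the deposited tables. They were chosen by their names and positions, and also by their lower FPKM at the later ages, so the differences between ages below describe why they were chosen and support nothing further. The study profiled messenger RNA of whole embryos collected at 3 ages, 0-1, 2-4 and 5-8 hours post-oviposition (hpo), with 1 library per age. The labels give no treatment, genotype or strain, and no number of embryos per library. Each age was sequenced once, so a difference between ages could not be set against the spread of replicates, and p-values are not given. Intervals are 95% intervals from the read counts, which cover counting error only. They are exact, except that those of differences in log2 ratio between the genes use a normal approximation.

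Copper-zinc superoxide dismutases convert superoxide, a reactive by-product of respiration, into oxygen and hydrogen peroxide, with a copper ion that takes part in the reaction and a zinc ion that holds the active site in shape. In Drosophila melanogaster the main enzyme of this kind is cytosolic, a related form is secreted, and a separate manganese enzyme serves the mitochondrial matrix. An insect egg is laid with messenger RNA made by the mother, which supports the first divisions and is removed in steps as the embryo begins to transcribe its own genes. The 3 ages were compared here to follow the level of both genes over that period. Each value is a total, in which maternal RNA and any transcript newly made by the embryo cannot be told apart. Shares retained or lost below refer to that total.

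SODC (gene number 105229447) lies on scaffold NW_011876380.1, minus strand, positions 2037028 to 2038516, and Zn-CuSOD (gene number 105231964) on scaffold NW_011876053.1, minus strand, positions 114135 to 115166. The coordinates are those the deposited tables use, on a genome build that the sources used here do not name. SODC spans 1489 bases, of which 779 are exonic and 710 intronic. Zn-CuSOD is more compact, with 913 exonic and 119 intronic bases in a span of 1032. Both are listed as protein-coding in the RefSeq gene table, each with 1 RefSeq transcript.

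Reads assigned to genes numbered 65069185 to 74817640 per library. The deposited FPKM values (reads per unit of transcript length and of library size) of both genes were equal to those computed from their read counts, the listed exonic lengths and the library totals. FPKM gives a transcript's share of the library and not molecules per embryo. Libraries were made from poly-T-selected RNA, so tail length can move a value, and its part in the differences was not tested. In RNA from whole embryos, loss of a transcript from some cells and a lower level in all cells cannot be told apart.

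SODC was an abundant transcript in newly laid eggs and one of middling to low level at 5-8 hpo. It had 17516 reads at 0-1 hpo, 2742 reads at 2-4 hpo and 828 reads at 5-8 hpo. Per length, this was FPKM 330 at 0-1 hpo (325 to 335), 54.1 at 2-4 hpo (52.1 to 56.2) and 14.2 at 5-8 hpo (13.3 to 15.2). Each age was lower than the one before, and no interval overlapped another. Among genes at FPKM 1 or more, SODC ranked 230 of 7046 from the top at 0-1 hpo, 1847 of 7114 at 2-4 hpo and 4772 of 7773 at 5-8 hpo. Set against the median gene of the same library, its FPKM was 10.1 times the median at 0-1 hpo, 2.31 times at 2-4 hpo and 0.663 times at 5-8 hpo.

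Zn-CuSOD began much lower and reached its low level by 2-4 hpo. The libraries held 2601 of its reads at 0-1 hpo, then 723 at 2-4 hpo and 762 at 5-8 hpo. On the FPKM scale it stood at 41.8 at 0-1 hpo (interval 40.2 to 43.4), 12.2 at 2-4 hpo (interval 11.3 to 13.1) and 11.2 at 5-8 hpo (interval 10.4 to 12.0). The 0-1 hpo library stood apart, while the intervals of the other two overlapped. Zn-CuSOD ranked 2835 of 7046 at 0-1 hpo, 4749 of 7114 at 2-4 hpo and 5242 of 7773 at 5-8 hpo, and its FPKM was 1.27, 0.519 and 0.521 times the median gene at the 3 ages in that order.

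**Figure D1:**
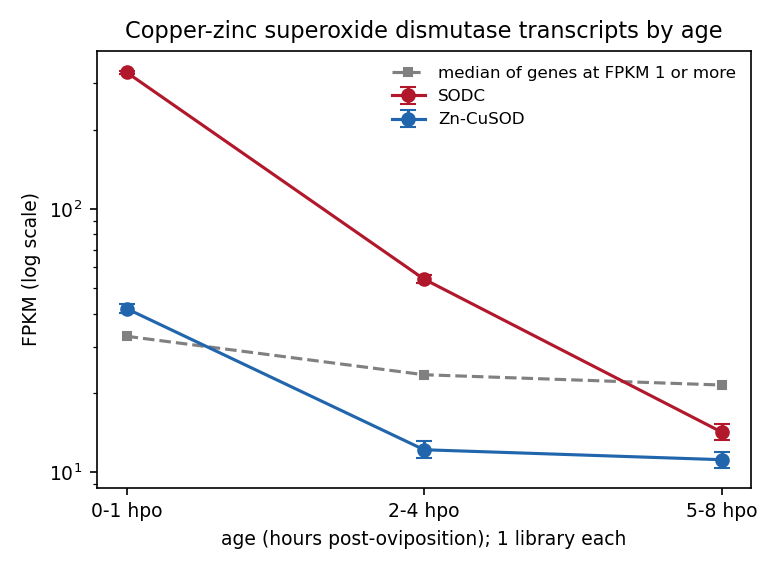
FPKM on a log axis of SODC and Zn-CuSOD at each age, with 95% counting intervals as error bars, and the median FPKM of genes at FPKM 1 or more (grey squares), 1 library per age. SODC starts at 330 and crosses below the median gene by 5-8 hpo at 14.2, while Zn-CuSOD is at 12.2 by 2-4 hpo and at 11.2 at 5-8 hpo.

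At 2-4 hpo SODC retained 16.4% of its 0-1 hpo FPKM (15.7 to 17.1), which is a log2 ratio of -2.61. Zn-CuSOD retained 29.1% (26.8 to 31.6), a log2 ratio of -1.78. The log2 ratio of SODC was lower than that of Zn-CuSOD by 0.83 (difference -0.83, interval -0.96 to -0.70). The share of SODC that remained was thus lower by a factor of 1.78. Both genes were at least 2-fold lower on log2(FPKM + 1), as were 23.5% of the 7310 genes that reached FPKM 1 in at least 1 of the libraries, and SODC alone was at least 4-fold lower, as were 8.28% of those genes. As the genes were chosen partly on this contrast, nothing is read from these counts. In the order of losses SODC was number 254 and Zn-CuSOD number 841 of 7310 genes.

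Between 2-4 and 5-8 hpo the courses of the genes parted. SODC at 5-8 hpo retained 26.3% of its 2-4 hpo FPKM (24.3 to 28.4), a log2 ratio of -1.93. Zn-CuSOD at 5-8 hpo stood at 91.7% of its 2-4 hpo FPKM, and its interval of 82.7 to 101.6 held equality. On the deposited FPKM scale a further fall in its level was thus not resolved from counting error. With some other scalings of the libraries, given at the end, the same interval would lie below equality. The difference between the log2 ratios was -1.80 (-1.99 to -1.62), the share of SODC that remained being lower by a factor of 3.49. SODC was at least 2-fold lower, as were 21.1% of 8142 genes, and neither gene was at least 4-fold lower, as were 6.3%. Zn-CuSOD was number 3556 of 8142 in the order of losses, near the middle of all genes, and SODC was number 642.

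Over the whole interval SODC at 5-8 hpo kept 4.31% of its 0-1 hpo FPKM (4.01 to 4.62) and Zn-CuSOD 26.7% (24.6 to 28.9). The log2 ratios were -4.54 for SODC and -1.91 for Zn-CuSOD, a difference of -2.63 (-2.79 to -2.48). At least 2-fold lower were both genes and 27.2% of 8148 genes, and at least 4-fold lower were SODC and 10.4% of all genes. SODC was number 85 and Zn-CuSOD number 1018 of 8148 in the order of losses. Among 68 genes with an informative name at this filter, SODC was number 2 and Zn-CuSOD number 9. The 6563 genes that stayed above FPKM 1 throughout had a median log2 ratio of -0.23 at the first step, -0.07 at the second and -0.37 across both. Relative to these medians, SODC stood at -2.38, -1.86 and -4.17, and Zn-CuSOD at -1.55, -0.05 and -1.54.

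The steps contributed differently to each gene. Of the FPKM that SODC lost by 5-8 hpo, 87.4% was gone by 2-4 hpo, but on the log2 scale that step made up 57.5% of its difference. For Zn-CuSOD the first step held 96.7% of the lost FPKM and 93.4% of the log2 difference. Taken between the midpoints of the collection windows, 2.5 hours apart, the first step amounts to -1.04 log2 units per hour for SODC and -0.71 for Zn-CuSOD. The second, with midpoints 3.5 hours apart, amounts to -0.55 per hour for SODC and -0.04 for Zn-CuSOD. These rates are approximate, since embryos of the first pair of ages could differ by 1 to 4 hours and those of the second pair by 1 to 6 hours.

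**Figure D2:**
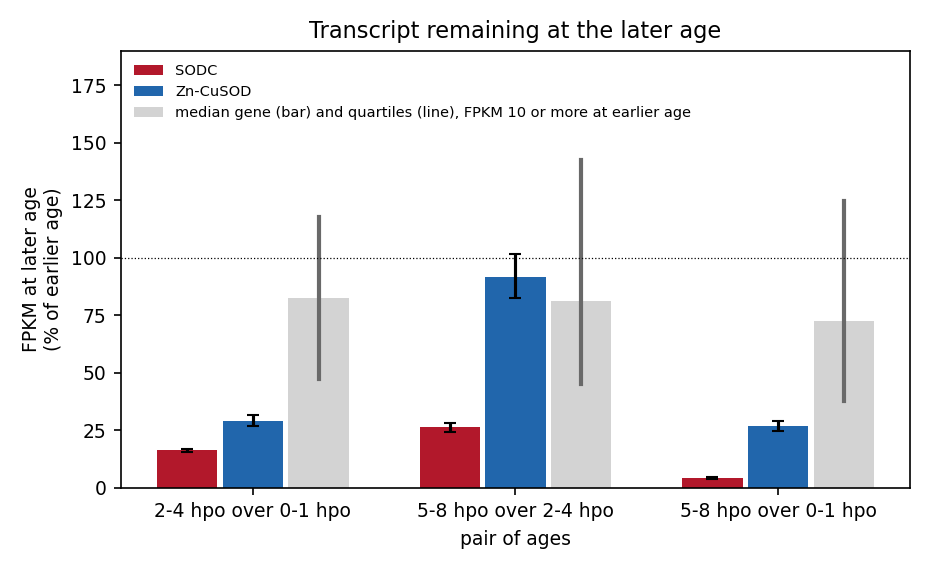
FPKM at the later age as a percentage of that at the earlier age in each pair of ages, for SODC and Zn-CuSOD with 95% counting intervals, beside the median (bar) and quartiles (line) of genes at FPKM 10 or more at the earlier age. SODC is at 16.4%, 26.3% and 4.31%, and Zn-CuSOD at 29.1%, 91.7% and 26.7%; the dotted line marks 100%.

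The median gene present in the egg lost less than either. Of 5800 genes with FPKM of 10 or more at 0-1 hpo, the median gene retained 82.7% at 2-4 hpo, with quartiles of 47.2% and 118%, and 72.7% at 5-8 hpo, with quartiles of 37.7% and 125%. No more than the share of SODC remained for 344 of these genes at 2-4 hpo and for 143, or 2.47%, at 5-8 hpo. The share of Zn-CuSOD or less remained for 814 genes at 2-4 hpo and for 950, or 16.4%, at 5-8 hpo. In the second step Zn-CuSOD, at 91.7%, stood above the median of 81.4% among 5039 genes with FPKM of 10 or more at 2-4 hpo.

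**Figure D3:**
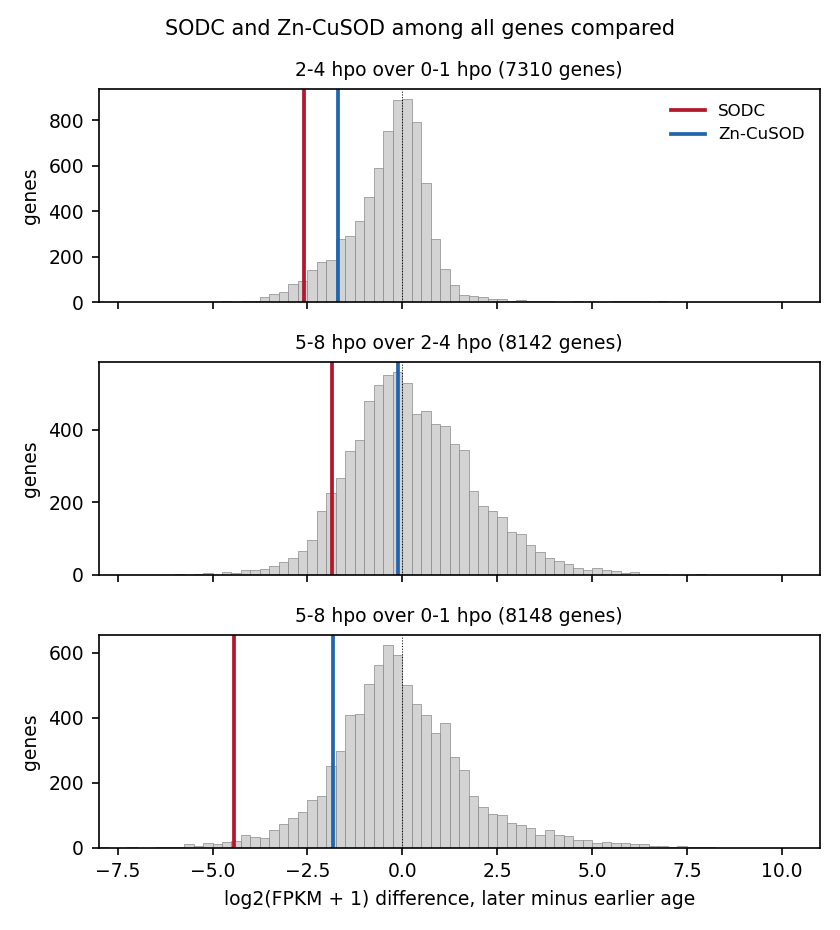
Histograms of the difference in log2(FPKM + 1) between ages, later minus earlier, for all genes that reached FPKM 1 at 1 or both ages, with SODC and Zn-CuSOD as vertical lines and a dotted line at 0. SODC lies in the lower tail in each pair (-2.59, -1.86 and -4.44), whereas Zn-CuSOD lies at -1.70, -0.12 and -1.82, near the centre in the middle panel.

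The levels of the genes drew together with age. SODC stood at 7.89 times the FPKM of Zn-CuSOD at 0-1 hpo (7.57 to 8.23), 4.44 times at 2-4 hpo (4.09 to 4.83) and 1.27 times at 5-8 hpo (1.15 to 1.41). SODC was the higher at each age, and the interval at 5-8 hpo still lay above equality. The summed FPKM of both genes was 372 at 0-1 hpo, then 66.3 at 2-4 hpo and 25.4 at 5-8 hpo. Zn-CuSOD made up 11.2% of that sum at 0-1 hpo, then 18.4% at 2-4 hpo and 44.0% at 5-8 hpo.

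The gene models beside SODC had courses unlike its own. LOC105229446, on the plus strand at 2033666 to 2036862, ends 165 bases from the 3′ end of SODC. It stood at FPKM 58.7 in eggs of 0-1 hpo, 82.9 at 2-4 hpo and 84.5 at 5-8 hpo, so its level at 5-8 hpo was 1.44 times that at 0-1 hpo (1.40 to 1.47). LOC105229448, on the plus strand at 2038837 to 2041730, starts 320 bases from the 5′ end of SODC and points away from it. It was low at each age, with 42 reads at 0-1 hpo, 65 reads at 2-4 hpo and 241 reads at 5-8 hpo, or FPKM 0.218, 0.353 and 1.14. Both neighbours were higher at 5-8 hpo than at 0-1 hpo, where SODC was lower.

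Beside Zn-CuSOD, LOC105231974 lies on the plus strand at 112268 to 114164, and its 3′ end overlaps that of Zn-CuSOD by 30 bases. Whether reads were counted by strand is not stated in the sources used here, so reads within the overlap cannot be told apart between these models. LOC105231974 had FPKM 19.5 at 0-1 hpo, 13.7 at 2-4 hpo and 11.0 at 5-8 hpo. At 2-4 hpo it retained 0.701 of its 0-1 hpo level (0.652 to 0.754) and at 5-8 hpo 0.803 of its 2-4 hpo level (0.740 to 0.871), a smaller loss than that of Zn-CuSOD at the first step. On the other side, LOC105231988, on the minus strand at 121202 to 167893, has its 3′ end 6035 bases from Zn-CuSOD and was almost without reads, with 0 at 0-1 hpo, 2 at 2-4 hpo and 6 at 5-8 hpo. A count of 0 at 0-1 hpo allows up to 0.0440 RPM (reads scaled to the library total), the value of 3 reads. All 4 models are also the nearest neighbours of these genes in the RefSeq gene table of a later assembly.

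**Figure D4:**
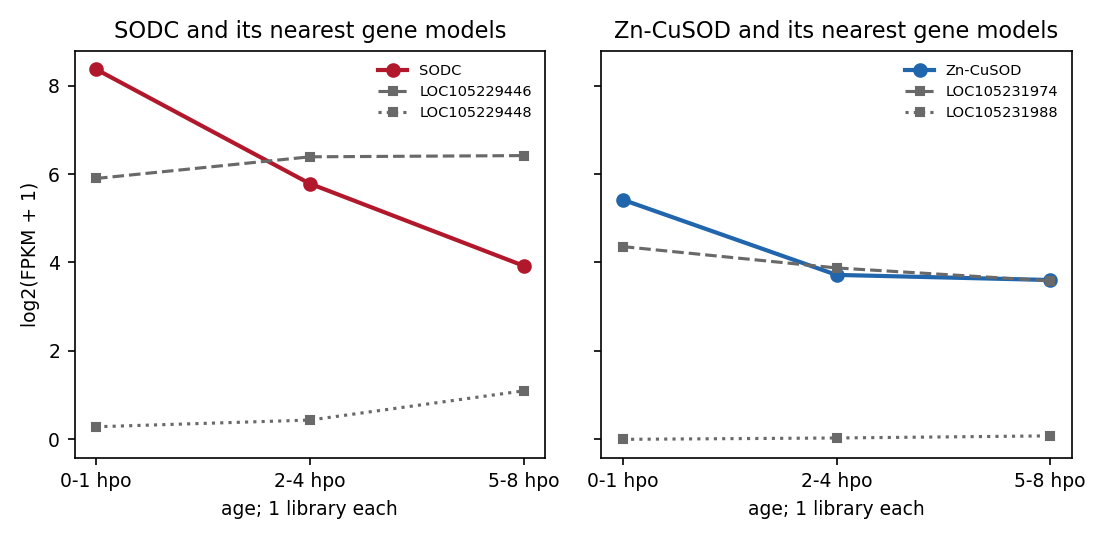
Level as log2(FPKM + 1) at each age for SODC (left panel) and Zn-CuSOD (right panel) with the nearest gene model on each side of each on its scaffold, 1 library per age. SODC falls below its neighbour LOC105229446 at 2-4 hpo, and Zn-CuSOD reaches FPKM 11.2 at 5-8 hpo beside 11.0 for LOC105231974.

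Genes with a similar course were sought by the Euclidean distance between log2(FPKM + 1) values, each gene centred on its own mean over the 3 libraries, among 6535 other genes with FPKM of 10 or more in any library. The nearest to SODC was LOC105223266, with FPKM 20.2 at 0-1 hpo, 2.47 at 2-4 hpo and 0.0064 at 5-8 hpo, a distance of 0.052. That gene is near 0 at 5-8 hpo, where the added 1 sets its value, so its loss as a share of its 0-1 hpo level was larger than that of SODC. With 0.1 added in place of 1, 0 of the 5 genes nearest to SODC and 2 of the 5 nearest to Zn-CuSOD were the same. The nearest genes with an informative name were CYP6G6v2, a cytochrome P450 gene, at distance 0.68, GST, a glutathione transferase gene, at 1.42, and L12r1. CYP6G6v2 stood at FPKM 377 at 0-1 hpo, 76.4 at 2-4 hpo and 10.2 at 5-8 hpo.

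LOC105224691 was nearest to Zn-CuSOD, at distance 0.087, with FPKM 31.7 at 0-1 hpo, 9.95 at 2-4 hpo and 8.64 at 5-8 hpo, again most of the loss by 2-4 hpo. Among genes with an informative name E4f1 was nearest, at distance 0.25, followed by L12r1 at 0.70 and Tysd1 at 0.78. Among all 6535 genes these were number 31, 417 and 528 in nearness. E4f1 had FPKM 21.0 at 0-1 hpo, then 6.98 at 2-4 hpo and 4.79 at 5-8 hpo. The superoxide dismutase genes were at distance 1.89 from each other in course. By that measure 687 of the 6535 genes compared were nearer to SODC than Zn-CuSOD was. From the side of Zn-CuSOD, 4572 of 6535 were nearer than SODC was.

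Other genes of oxidative defence could be named only in part. Of 6 lists (superoxide dismutases, peroxide removal, the thioredoxin and glutathione system, glutathione transferases, copper handling and ferritins), 4 had no gene that matched by symbol or synonym, and the superoxide dismutase list matched only SODC and Zn-CuSOD. Genes known by number alone may belong to these lists and were not analysed here as such. The glutathione transferases were GST, whose synonym GSTO1 names the omega class, and GSTT1, which names the theta class. Many enzymes of the glutathione transferase family join glutathione to reactive compounds.

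GST had FPKM 114 at 0-1 hpo, 76.2 at 2-4 hpo and 10.2 at 5-8 hpo. It retained 66.6% at 2-4 hpo (64.3 to 68.9), and at 5-8 hpo 13.4% of its 2-4 hpo level (12.4 to 14.4). GSTT1 had FPKM 21.5 at 0-1 hpo, 33.0 at 2-4 hpo and 5.24 at 5-8 hpo, so it was higher at 2-4 hpo than in eggs and then stood at 15.9% of that level (14.1 to 17.8). GST thus had its larger loss, and GSTT1 its only loss, in the second step. In that step SODC also fell, to 26.3% of its 2-4 hpo FPKM, while the interval of Zn-CuSOD held equality on the deposited FPKM scale.

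In counts on log2(FPKM + 1), 0 of the 2 transferase genes were at least 2-fold lower or higher at 2-4 hpo than at 0-1 hpo, whereas 23.5% of all 7310 genes were lower and 5.55% higher by that much. The list median was 0.01, beside -0.21 over all these genes. At 5-8 hpo against 2-4 hpo both were at least 4-fold lower, as were 6.3% of all 8142 genes, with a list median of -2.61 beside 0.11. At 5-8 hpo against 0-1 hpo both were at least 2-fold lower, as were 27.2% of all 8148 genes, and GST alone was at least 4-fold lower, as were 10.4%. The list median was -2.61, beside -0.17 over all these genes.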

How the data were processed

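Deposited tables give read counts per gene, 1 for each of the 3 libraries, and 1 table gives FPKM for 13489 genes. Per the submitters' processing notes, HISAT2 2.0.4 and HTSeq 0.9.1 were used; settings, build and annotation are not given in these sources. The deposited counts are raw whole numbers per the file headers. The deposited FPKM values are the authors' counts scaled to transcript length and library total. Names came from RefSeq assembly ASM2337382v1, which matched 11887 of 13489 identifiers; 76 have an informative name.

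Ratios are of FPKM without a pseudocount, with exact conditional binomial intervals of the 2 counts. Differences between genes have intervals from 4 counts by a normal approximation on the log scale. Comparisons over all genes used log2(FPKM + 1), where changes of low genes come out too small, over genes reaching FPKM 1 at either age. A library's floor is 3 reads. The members and the lists were chosen with earlier results of these data known. Named are the members, their nearest models, the genes nearest in course (3 by name, and 1 by identifier for each member) and list members with FPKM of 5 or more. Intervals and 4-fold counts were tested on simulated counts with counting error only and a known library scale. Variation between embryos or libraries was not simulated. Python 3.11.15, scipy 1.17.1 and pandas 2.3.3 were used. No sequence is shown.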

Additional observations from a re-analysis of the deposited data

How the results depend on the processing

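Of 36 log2 ratios of SODC and Zn-CuSOD under the alternatives, 29 lay within the counting interval of the reported value, 7 lay outside it, and none had the opposite sign. The ratios of RPM from the counts are among those within it and equal the reported values by construction. On the TPM scale SODC stood at -2.70 at 2-4 against 0-1 hpo and at -4.67 at 5-8 against 0-1 hpo, and Zn-CuSOD at -2.04 at 5-8 against 0-1 hpo. With median-of-ratios scaling the first pair gave -2.41 for SODC and -1.58 for Zn-CuSOD, and 5-8 against 0-1 hpo gave -4.37 and -1.74. These scalings shift all genes of a library alike. For Zn-CuSOD at 5-8 against 2-4 hpo the reported value was -0.13 (-0.27 to 0.02). It was -0.17 on the TPM scale and -0.16 with median-of-ratios scaling. Both lay within that interval, but the interval shifted alike would exclude equality on either scale. The difference between the genes moved with no alternative beyond its interval; values from the counts leave it equal by construction. Of 30 counts of lower genes 29 were within 1.5 times the reported count. The counts without a filter on low values are among these and equal the reported ones by construction. Adding 0.1 rather than 1 gave 783 genes at least 4-fold lower at 5-8 than at 2-4 hpo, against 513.

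The genes nearest in course depended on the settings. With a pseudocount of 0.1, 0 of 5 for SODC and 2 of 5 for Zn-CuSOD were shared with those reported. With a filter at FPKM 50, 2 of the 5 nearest to SODC were shared, and Zn-CuSOD, whose highest FPKM is 41.8, could not be compared. No paired analysis was possible because the labels give a single library at each age.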
